A study of Mus musculus with 17 samples.

Results

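The 8 genes described here act in MHC class II antigen presentation: H2-Aa, H2-Ab1, H2-Eb1, Cd74, H2-DMa, H2-DMb1, Ciita and Cd86. They were chosen by symbol, and each matched 1 feature of a count table with 31647 features. Transcripts were counted in the hearts of 17 wild-type male C57BL/6J mice aged 8 to 11 weeks. In 9 mice the left anterior descending coronary artery was permanently ligated and RNA was taken from the infarct zone (IZ) 5 days later. The other 8 were sham operated, with the chest surgery but no ligation, and their left ventricle was sampled. The model has no reperfusion, every heart carried the same strain background, and whole tissue was used, so neither the cells that made a transcript nor their number was recorded. Each library came from a separate mouse. Counts came from MACE, a method that sequences the 3' end of polyadenylated transcripts and uses molecular identifiers to remove PCR duplicates. Levels are given as CPM, a count divided by its library size after TMM scaling (which aligns the bulk of genes between libraries), and are not divided by transcript length, so they are compared between groups for 1 gene and not between genes.

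MHC class II molecules show peptides from engulfed proteins to CD4+ T cells, and are made above all by dendritic cells, macrophages and B cells. An alpha and a beta chain are assembled with the invariant chain, cathepsins cut the invariant chain down in the endosome, and H2-DM exchanges its last fragment for a peptide. Transcription of these genes depends on CIITA, a coactivator that binds no DNA itself and is recruited by the RFX, CREB and NF-Y factors on a conserved promoter module, and interferon gamma is its classical inducer. Mice of the C57BL/6 strain make the I-A molecule (H2-Aa with H2-Ab1) but no I-E at the surface, because the promoter of the I-E alpha chain gene is deleted. H2-Eb1, which encodes the I-E beta chain, is still transcribed.

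The promoters of class II genes share an X box, bound by RFX, followed by a Y box, an inverted CCAAT motif bound by NF-Y. RefSeq promoter windows (build GRCm38.p6, 250 bases before to 50 after the annotated start) were found for H2-Aa, H2-Eb1, H2-DMa and H2-DMb1 among the members and for H2-DMb2, H2-Oa, H2-Ob and H2-Eb2 among the other class II chains. They were searched on both strands for an X core, CTNGNAAC, and a Y core, TGATTGG. These letters were chosen with the sequences in view. The X core was found in 13.15% of 32851 mouse promoter windows and the Y core in 7.817%. An X core followed by a Y core on the same strand within 40 bases was found in 31 windows, or 0.09437%. H2-Aa (chr17:34287774-34288073, minus strand), H2-Eb1 (chr17:34305617-34305916, plus strand) and H2-DMb1 (chr17:34152941-34153240, plus strand) each held this arrangement. H2-DMb2 (chr17:34144999-34145298, plus strand), the neighbour and near copy of H2-DMb1, held the Y core but no exact match to the X core. The 4 windows are shown 5' to 3' on the strand of the gene, with the cores in capitals, the first 3 for their shared spacing and that of H2-DMb2 to compare it with H2-DMb1.
H2-Aa: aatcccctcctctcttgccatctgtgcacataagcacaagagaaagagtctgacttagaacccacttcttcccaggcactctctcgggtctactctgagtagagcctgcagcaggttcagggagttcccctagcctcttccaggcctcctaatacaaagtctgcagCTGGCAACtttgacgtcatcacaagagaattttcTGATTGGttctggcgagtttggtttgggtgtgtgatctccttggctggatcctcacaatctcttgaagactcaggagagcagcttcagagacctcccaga
H2-Eb1: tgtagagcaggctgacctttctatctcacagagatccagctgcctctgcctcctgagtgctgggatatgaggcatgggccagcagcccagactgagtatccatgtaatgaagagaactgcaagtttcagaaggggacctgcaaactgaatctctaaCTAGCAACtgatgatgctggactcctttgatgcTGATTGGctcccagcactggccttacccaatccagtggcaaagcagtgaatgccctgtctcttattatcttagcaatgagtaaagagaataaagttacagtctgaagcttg
H2-DMb1: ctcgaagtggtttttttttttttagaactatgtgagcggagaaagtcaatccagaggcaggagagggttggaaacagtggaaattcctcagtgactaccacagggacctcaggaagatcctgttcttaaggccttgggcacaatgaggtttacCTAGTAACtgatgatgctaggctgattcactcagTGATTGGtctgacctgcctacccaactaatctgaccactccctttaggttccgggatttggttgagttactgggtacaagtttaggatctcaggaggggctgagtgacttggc
H2-DMb2: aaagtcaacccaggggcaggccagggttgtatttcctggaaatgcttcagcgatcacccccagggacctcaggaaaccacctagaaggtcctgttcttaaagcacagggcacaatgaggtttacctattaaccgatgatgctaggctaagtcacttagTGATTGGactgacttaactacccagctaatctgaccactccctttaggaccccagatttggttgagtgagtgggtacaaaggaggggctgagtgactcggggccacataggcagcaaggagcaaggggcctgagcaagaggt
The X core began 84 bases before the start in H2-Aa, 94 in H2-Eb1 and 97 in H2-DMb1, and the gap to the Y core was 26, 25 and 26 bases. H2-Ob held the same order with a gap of 23 bases. H2-DMa had 2 annotated windows, and neither held the letters of either core. Both windows (chr17:34122582-34122881 and chr17:34125268-34125567) lay inside the span of the gene, where other annotated genes overlap it. Other starts of H2-DMa were not searched, so these windows do not show whether its promoter holds the module. H2-Oa held the Y core with no exact X core, and H2-Eb2 held exact matches to both but not in this order. Letters close to the X core stood before the Y core in H2-Oa and H2-Eb2 (ccagcaac) and in H2-DMb2 (ctattaac). The lack of a match in these windows therefore depends on the letters chosen. A match is a description of letters and not a measured binding site.

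The 17 libraries held 1237675 to 4738307 counts. One IZ library, replicate 1, stood apart from the rest. Mitochondrially encoded features took 19.5% of its counts, against 4.22 to 6.78% in the other 8 IZ libraries and 22.9 to 32.4% in sham. Summed over 6 cardiomyocyte markers it held 24079 CPM, against 2463 to 5767 CPM in the other IZ libraries and 51614 to 65096 CPM in sham. Summed over 6 pan leukocyte markers it held 591 CPM, against 1057 to 1368 CPM in the other IZ libraries and 88.0 to 137 CPM in sham. It is therefore given apart below, and results are also given without it.

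**Figure D1:**
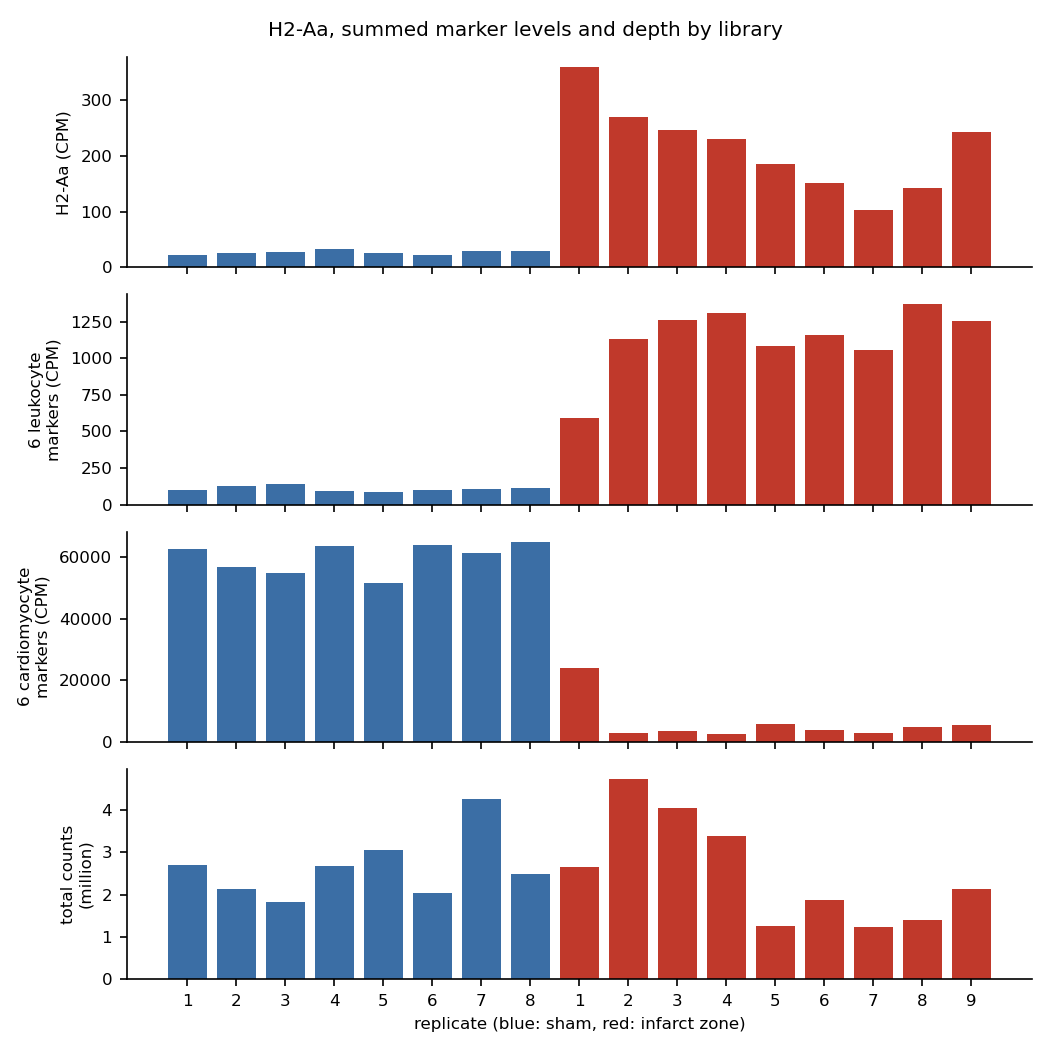
Bars give, for each library, the level of H2-Aa (CPM), the summed levels of 6 pan leukocyte and 6 cardiomyocyte markers (CPM), and total counts, with sham in blue and the infarct zone in red. IZ replicate 1 has the highest H2-Aa, 359 CPM, the lowest leukocyte sum of the IZ libraries, 591 CPM, and the highest cardiomyocyte sum of the IZ libraries, 24079 CPM.

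All 7 members that had enough counts to be tested rose in the infarct zone, by 1.70 to 3.03 on the log2 scale, and the eighth, Ciita, was near the limit of detection. The test was the quasi-likelihood test of edgeR with Benjamini-Hochberg adjustment over 12301 genes, and the largest adjusted p among the 7 was 5.03e-05. In this comparison 36.3% of all tested genes were called higher. The median log2 fold change of the 7 members was 2.73, against 0.05 over all tested genes. In 6 of the 7 every IZ library lay above every sham library, which held for 16.6% of all tested genes. In whole tissue, more cells that express a gene and more RNA of that gene per cell cannot be told apart.

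H2-Aa (ENSMUSG00000036594, chromosome 17, 34282744 to 34287823), the alpha chain of I-A, ran from 21.9 to 33.5 CPM in sham with a median of 26.8. In IZ replicates 2 to 9 it ran from 102 to 269 CPM with a median of 208, and IZ replicate 1 had 359 CPM. Every IZ library lay above every sham library, and IZ replicate 1 was the highest of all. The mean was 26.9 ± 3.76 CPM over the sham hearts (SD, n = 8) and 214 ± 77.9 CPM over the IZ hearts (SD, n = 9). H2-Aa rose 7.96-fold, a log2 fold change of 2.99 ± 0.21 (SE, edgeR adjusted p 2.33e-11), and by 2.84 ± 0.17 without IZ replicate 1.

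H2-Ab1 (ENSMUSG00000073421, chromosome 17, 34257689 to 34269419), the beta chain that pairs with H2-Aa, ran from 18.9 to 44.1 CPM in sham (median 27.2) and from 98.7 to 233 CPM in IZ replicates 2 to 9 (median 189). IZ replicate 1 had 330 CPM. The groups did not overlap. The mean was 29.0 ± 7.96 CPM over the sham hearts (SD, n = 8) and 192 ± 70.7 CPM over the IZ hearts (SD, n = 9), a log2 fold change of 2.73 ± 0.22 (SE, edgeR adjusted p 2.63e-10), or 2.57 without IZ replicate 1. H2-Eb1 (ENSMUSG00000060586, chromosome 17, 34305867 to 34316674) ran from 8.89 to 23.8 CPM in sham (median 17.3), from 51.0 to 167 CPM in IZ replicates 2 to 9 (median 131), and had 279 CPM in IZ replicate 1. It had the largest log2 fold change of the members, 3.03 ± 0.29 (SE, edgeR adjusted p 3.24e-09), and 2.82 without IZ replicate 1. For all 3 classical chains replicate 1 was the highest and replicate 7 the lowest IZ library.

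Cd74, the invariant chain that fills the peptide groove until loading, ran from 29.5 to 79.4 CPM in sham (median 40.5) and from 204 to 312 CPM in IZ replicates 2 to 9 (median 260.3). IZ replicate 1 had 466 CPM, and the groups did not overlap. The mean was 48.3 ± 17.4 CPM over the sham hearts (SD, n = 8) and 281 ± 75.4 CPM over the IZ hearts (SD, n = 9). Cd74 rose by 2.54 ± 0.20 on the log2 scale (SE, edgeR adjusted p 1.31e-10), and by 2.39 without IZ replicate 1. Without that library its IZ levels had an SD of 31.1 CPM around a mean of 257, a narrower relative spread than that of H2-Aa, 59.7 CPM around 196.

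H2-DMa and H2-DMb1 encode the alpha and beta chains of H2-DM, the peptide exchanger. H2-DMa (ENSMUSG00000037649, chromosome 17, 34119541 to 34139101) ran from 1.67 to 6.11 CPM in sham (median 4.28), from 10.8 to 28.7 CPM in IZ replicates 2 to 9 (median 23.3), and had 36.6 CPM in IZ replicate 1. It rose by 2.53 ± 0.30 on the log2 scale (SE, edgeR adjusted p 8.25e-08), and by 2.39 without IZ replicate 1. H2-DMb1 (ENSMUSG00000079547, chromosome 17, 34153072 to 34160230) ran from 1.54 to 8.71 CPM in sham (median 4.58) and from 28.2 to 51.0 CPM in IZ replicates 2 to 9 (median 33.4). IZ replicate 1 had 26.1 CPM, the lowest of the IZ libraries and the reverse of its place for the other chains. H2-DMb1 rose by 2.99 ± 0.24 on the log2 scale (SE, edgeR adjusted p 2.87e-10), and by 3.01 without IZ replicate 1. Neither gene overlapped between the groups, although sham held only 3 to 10 counts of H2-DMa and 4 to 12 of H2-DMb1 per library. The last 500 bases of H2-DMb1 and H2-DMb2 shared 161 bases at 91.9% identity, so reads could be split between them, and H2-DMa overlaps another annotated gene, CR974462.3, on its own strand.

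Ciita (ENSMUSG00000022504, chromosome 16, 10480059 to 10528418), the transactivator of the class II genes, was barely detected and did not pass the filter on low counts. It had 0 or 1 count in every sham library, 2 in all. IZ replicates 1 to 9 had 7, 12, 16, 8, 0, 0, 1, 0 and 1 counts. Of the 45 IZ counts, 43 came from replicates 1 to 4, and the other 5 IZ libraries had 0 or 1 count each. By total counts replicates 1 to 4 were also the 4 deepest IZ libraries (2650935 to 4738307, against 1237675 to 2124172 in replicates 5 to 9). By library size after TMM scaling, replicate 9 (2959557), with 1 count, was larger than replicate 1 (2759552), with 7. The upper limit of the 95% exact Poisson interval ran from 1.34 CPM (replicate 6) to 3.02 CPM in replicates 5 to 9. The levels in replicates 1 to 4 were 1.58 to 2.64 CPM. The part of depth was not tested. Pooled over libraries the level was 0.142 CPM in sham (95% exact Poisson interval 0.0172 to 0.514) and 1.39 CPM in the infarct zone (1.02 to 1.86), a ratio of 9.78 with a 95% interval of 2.55 to 83.2 that covers counting error only. With no filter, edgeR gave an adjusted p of 0.0119, and DESeq2 gave 0.0286.

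Cd86 (ENSMUSG00000022901, chromosome 16, 36603869 to 36666081), the costimulatory ligand of CD28 and CTLA4 on antigen-presenting cells, showed the smallest rise. It ran from 0 to 3.96 CPM in sham (median 3.09), where replicate 8 had no count, and from 2.83 to 11.5 CPM in IZ replicates 2 to 9 (median 9.58). IZ replicate 1 had 7.61 CPM. In 8 of 9 IZ libraries Cd86 lay above every sham library, and IZ replicate 5, with 5 counts, did not. Cd86 rose by 1.70 ± 0.32 on the log2 scale (SE, edgeR adjusted p 5.03e-05), and by 1.49 without sham replicate 8.

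**Figure D2:**
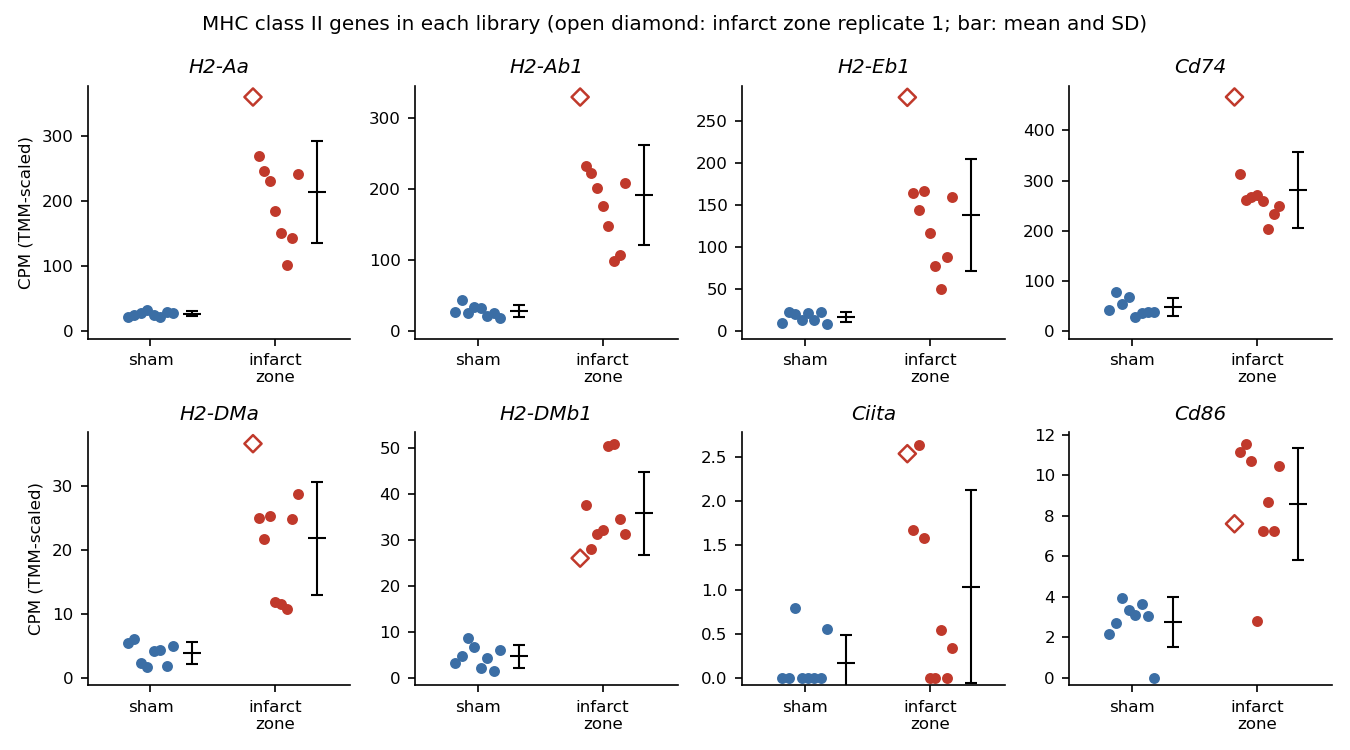
Points give the CPM of each member in each library (blue sham, red infarct zone, open diamond IZ replicate 1), and bars give the mean and SD. IZ replicate 1 is the highest library for H2-Aa, H2-Ab1, H2-Eb1, Cd74 and H2-DMa but the lowest IZ library for H2-DMb1, 26.1 CPM, and Ciita is at 0 in 6 of 8 sham and 3 of 9 IZ libraries.

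The other class II chains could be tested in 1 case. H2-DMb2, the second H2-DM beta chain, rose by 2.73 ± 0.37 on the log2 scale (SE, edgeR adjusted p 6.59e-07), from 0.828 ± 0.791 CPM over the sham hearts (SD, n = 8) to 5.93 ± 1.37 CPM over the IZ hearts (SD, n = 9). H2-Oa and H2-Ob, the chains of H2-O, which restrains H2-DM, were at 3 counts or fewer in every sham library. Against the mean of that floor of 3 counts per library, the IZ mean was at least 1.24-fold higher for H2-Oa and at least 1.71-fold higher for H2-Ob. H2-Oa had no count in IZ replicates 5 and 7. H2-Eb2 was at or under the floor in both groups. H2-Ea, its pseudogene and Cd40lg were not analysed here.

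The factors that bind the class II promoter module moved in both directions. Of 7 tested, 3 rose and 2 fell, which lies near the shares over all tested genes, 36.3% called higher and 33.1% called lower. The median log2 fold change of the 7 was 0.12 against 0.05 over all genes. The NF-Y subunits, which bind the Y box, moved in different directions. Nfya rose by 1.19 ± 0.19 (SE, edgeR adjusted p 6.86e-06), Nfyb rose by 0.45 ± 0.15 (adjusted p 0.00968) and Nfyc fell by 1.17 ± 0.18 on the log2 scale (adjusted p 3.08e-06). Among the RFX subunits, which bind the X box, Rfxank fell by 0.90 ± 0.20 (edgeR adjusted p 3.32e-04), whereas Rfx5 at 0.12 ± 0.23 and Rfxap at -0.09 ± 0.22 did not pass the test. Creb1 rose by 0.31 ± 0.12 (edgeR adjusted p 0.0209), a call that was lost without sham replicate 4 (adjusted p 0.0562), sham replicate 6 (0.0513) or IZ replicate 1 (0.0578). When libraries were scaled by their total counts, the all-gene median moved from 0.05 to 1.14, Rfxank (0.15) and Nfyc (-0.10) were no longer called, and Rfx5 at 1.22 and Rfxap at 0.998 were called higher (edgeR adjusted p 4.71e-05 and 4.01e-04).

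Genes that prepare or remove class II molecules rose in 5 of 6 cases, with a median log2 fold change of 2.82. Of all tested genes 36.3% were called higher. Ctss, cathepsin S, which cuts the invariant chain, ran from 21.2 to 55.4 CPM in sham and from 709 to 959 CPM in IZ replicates 2 to 9, with 331 CPM in IZ replicate 1. Its log2 fold change was 4.46 ± 0.23 (SE, edgeR adjusted p 4.18e-13). The lysosomal thiol reductase Ifi30 rose by 3.26 ± 0.21, the protease Lgmn by 2.74 ± 0.20 and Ctsl, cathepsin L, by 2.10 ± 0.17. March1, a ubiquitin ligase that takes class II and CD86 off the surface, rose by 2.90 ± 0.25 from 1.78 ± 0.831 CPM over the sham hearts (SD, n = 8) to 13.3 ± 2.69 CPM over the IZ hearts (SD, n = 9). Its relative March8 did not pass the test at -0.17 ± 0.16 (edgeR adjusted p 0.351), but was called higher, at 0.93, when libraries were scaled by their total counts (adjusted p 3.06e-05). IZ replicate 1 was the lowest IZ library for Ctss, Ctsl, Lgmn and Ifi30, whereas for the classical chains it was the highest.

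In the interferon gamma route, Ifng itself was at or under the floor in both groups, with 2 counts in 1 IZ library and none elsewhere. Of 6 other genes tested, 3 rose and 1 fell, with a median log2 fold change of 0.33. Over all tested genes 36.3% were called higher and 33.1% lower. The receptor chain Ifngr1 rose by 0.996 ± 0.13 (SE, edgeR adjusted p 4.67e-07) and the receptor chain Ifngr2 fell by 0.94 ± 0.15 (adjusted p 9.77e-06). When scaled by total counts Ifngr2 was at 0.11 and not called. Jak2 at 0.38 ± 0.15 (adjusted p 0.0301) and the feedback inhibitor Socs1 at 0.95 ± 0.40 (adjusted p 0.0374) were called. Both calls were lost when certain single libraries were left out, for Jak2 any of sham replicates 5 to 8 or IZ replicate 3 (adjusted p up to 0.0763) and for Socs1 sham replicate 1, 3, 4, 7 or 8 (up to 0.0734). Jak1 at -0.05 ± 0.13 and Irf1, an interferon-induced factor that acts on a Ciita promoter, at 0.29 ± 0.19 did not pass the test. Scaled by total counts, both were called higher, at 1.04 and 1.36 (edgeR adjusted p 7.14e-08 and 1.07e-06), and Irf1 was also called without sham replicate 2 (adjusted p 0.0454).

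Among other costimulatory genes, Cd40, the receptor through which T cells activate antigen-presenting cells, rose by 2.03 ± 0.32 (SE, edgeR adjusted p 5.59e-06), with no overlap between the groups. Cd83, a marker of mature dendritic cells, rose by 0.82 ± 0.31 (adjusted p 0.0218), a call lost without sham replicate 5 (adjusted p 0.0513). Cd80, which shares its receptors with Cd86, had 0 or 1 count in every sham library and was at least 1.12-fold higher in IZ. Icosl at 0.00 ± 0.24 and Cd274, which encodes PD-L1, at -0.51 ± 0.25 did not pass the test (edgeR adjusted p 0.996 and 0.0808). Cd274 was called lower without sham replicate 6 or 7 (edgeR adjusted p 0.0413 and 0.0460), and Icosl was called higher, at 1.08, when scaled by total counts (adjusted p 9.80e-05). Of the T cell receptors for these ligands, Ctla4 had 0 to 8 counts per library in sham and 0 or 1 in the infarct zone, and was at least 2.14-fold lower there. Cd28 had 0 to 5 counts in sham libraries and 0 to 6 in IZ libraries and could not be tested, and Icos was at or under the floor in both groups. So was Pdcd1lg2, which is a ligand like Cd274 and not a T cell receptor.

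**Figure D3:**
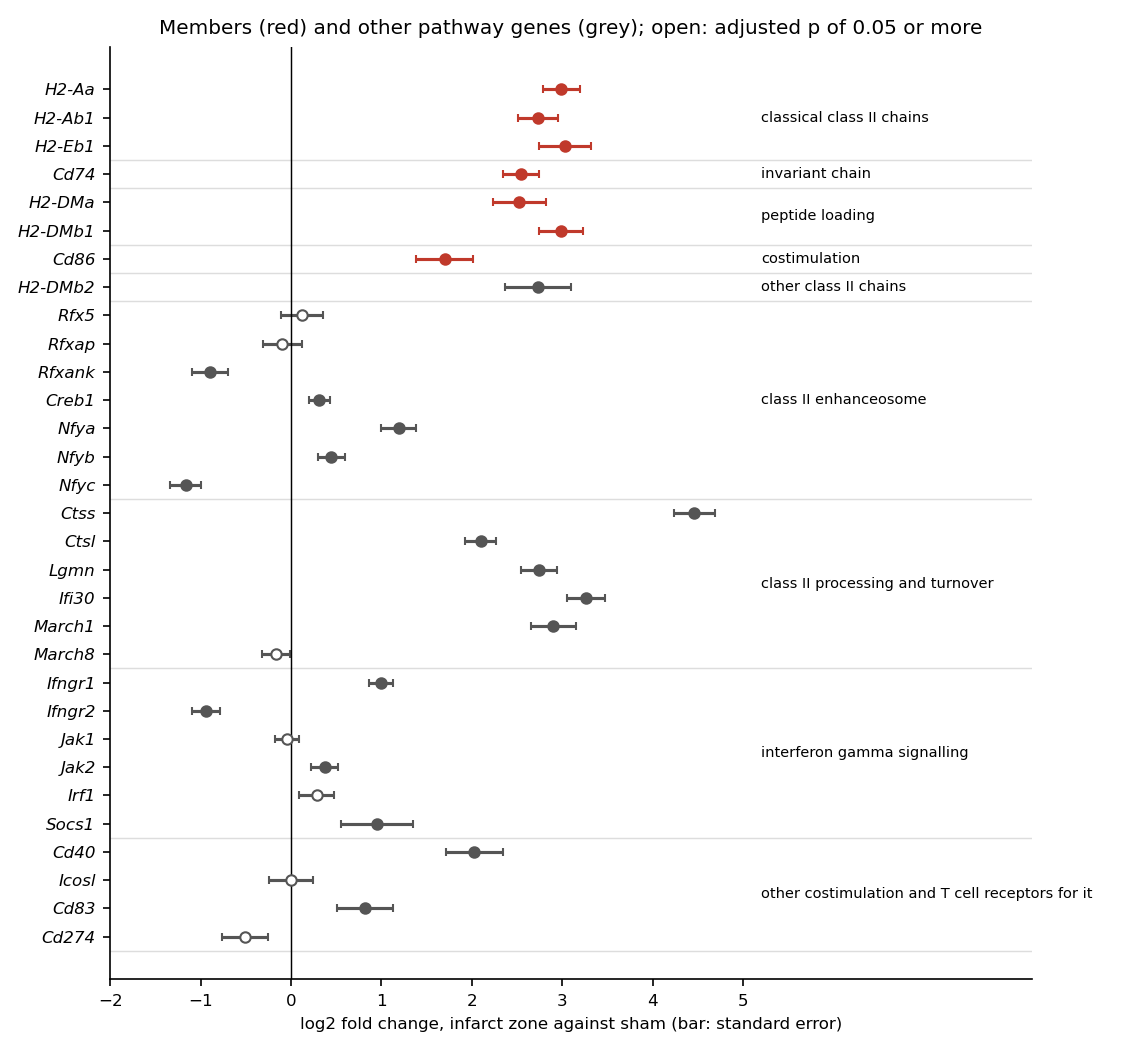
Log2 fold changes of the infarct zone against sham with standard errors, for the 7 tested members (red) and the tested genes of the pathway lists (grey), where open symbols had an adjusted p of 0.05 or more. The members lie between 1.70 and 3.03, Ctss reaches 4.46, and the promoter factors and the interferon gamma genes lie between -1.17 and 1.19.

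Several lists of cell type markers also differed between the groups, not all in one direction, and their part in the result was not tested. For comparison, 36.3% of all tested genes were called higher and 33.1% lower. All 6 pan leukocyte markers rose (median log2 fold change 3.26), as did all 7 macrophage and monocyte markers (3.19), whose sum went from 279 to 435 CPM in sham to 2922 to 4599 CPM in IZ replicates 2 to 9 and 1618 CPM in IZ replicate 1. Of 5 recruited monocyte markers all 4 tested rose (median 3.70), from Ly6c2 at 0.64 to Chil3 at 5.18. Of 5 resident macrophage markers tested, 2 rose and 2 fell (median 0.38), with Cx3cr1 at 2.65, Mrc1 at 1.15, Lyve1 at -1.30 and Cd163 at -1.09, while Timd4 could not be tested. Of 12 dendritic cell markers only 4 could be tested. Itgax, Irf8 and Clec10a rose and Zbtb46 fell. At 3 counts or fewer in every sham library were 7 others, Flt3, Xcr1, Batf3, Cd209a, Irf4, Ccr7 and Siglech, and Clec9a was not tested either. Of 7 B cell markers 4 could be tested and 3 rose. Ms4a1 could not be tested, and had 21 and 9 counts in IZ replicates 2 and 3 against 0 to 2 in every other library. The highest levels of Igkc (326 and 128 CPM) and Ighm (304 and 118 CPM), which encode antibody chains, were in IZ replicates 2 and 3. The other IZ libraries had 2.54 to 13.0 CPM of Igkc and 10.2 to 28.2 CPM of Ighm. Without IZ replicate 2 the log2 fold change of Igkc went from 3.53 to 2.28 and that of Ighm from 2.57 to 1.61. None of 8 T cell markers could be tested, and their sum ran from 0 to 5.43 CPM in sham libraries and from 5.07 to 16.99 CPM in IZ libraries. Of 5 endothelial markers 2 fell and none rose, 4 of 5 fibroblast markers rose (median 1.57), and all 6 cardiomyocyte markers fell. The calls among resident macrophage markers and the falls among endothelial markers lie near the shares over all tested genes.

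To ask whether the members moved apart from leukocyte genes, the log2 ratio of each tested member to Ptprc (CD45, present on all leukocytes) and to Csf1r (the receptor that marks monocytes and macrophages) was compared between the groups. Each other member was also set against H2-Aa. Each of the 20 differences was given an exact two-sided permutation p from the group labels, with Benjamini-Hochberg adjustment over the 20. Ptprc itself rose by 2.83 ± 0.21 and Csf1r by 2.31 ± 0.13 on the log2 scale (SE, edgeR). Ptprc had the smallest rise of the 6 pan leukocyte markers (median 3.26) and only 3 to 19 counts per sham library. Csf1r lay below the median of the 7 macrophage and monocyte markers (3.19). Other markers were not used as references, so the size and sign of each difference hold for Ptprc and Csf1r only. None of the 20 differences passed an adjusted p of 0.05.

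The log2 ratio of H2-Aa to Csf1r was -0.20 ± 0.24 over the sham hearts (SD, n = 8) and 0.40 ± 0.58 over the IZ hearts (SD, n = 9), and 7 of 9 IZ libraries lay above every sham library. The difference of 0.60, or 1.52-fold, had an exact permutation p of 0.00917 and an adjusted p of 0.0917. IZ replicate 1 had a log2 ratio of 1.65, and without it the difference was 0.45, with an exact permutation adjusted p of 0.146. Without sham replicate 8 or IZ replicate 7 it passed, at 0.63 and 0.69 (exact permutation adjusted p 0.0493 and 0.0466). Against Ptprc the difference for H2-Aa was -0.01 (exact permutation p 0.979), with ratios of 2.32 ± 0.81 over the sham hearts (SD, n = 8) and 2.31 ± 0.57 over the IZ hearts (SD, n = 9). The member with the largest shift was Cd86. Its log2 ratio to Ptprc was -1.04 ± 1.15 over the sham hearts (SD, n = 8) and -2.26 ± 0.49 over the IZ hearts (SD, n = 9), a difference of -1.22 (exact permutation p 0.00769, adjusted p 0.0917). Its ratio to H2-Aa differed by -1.21 (exact permutation p 0.0235, adjusted p 0.157). Both rest on how sham replicate 8, with no Cd86 count, is treated. Without that library the differences were -1.51 and -1.63, both with an exact permutation adjusted p of 5.83e-04, so Cd86 then rose less than Ptprc and less than H2-Aa. The ratios of Cd86 to Csf1r and of H2-Ab1 to H2-Aa also passed without that library, at -1.002 and -0.33 (exact permutation adjusted p 5.83e-04 and 0.0341).

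**Figure D4:**
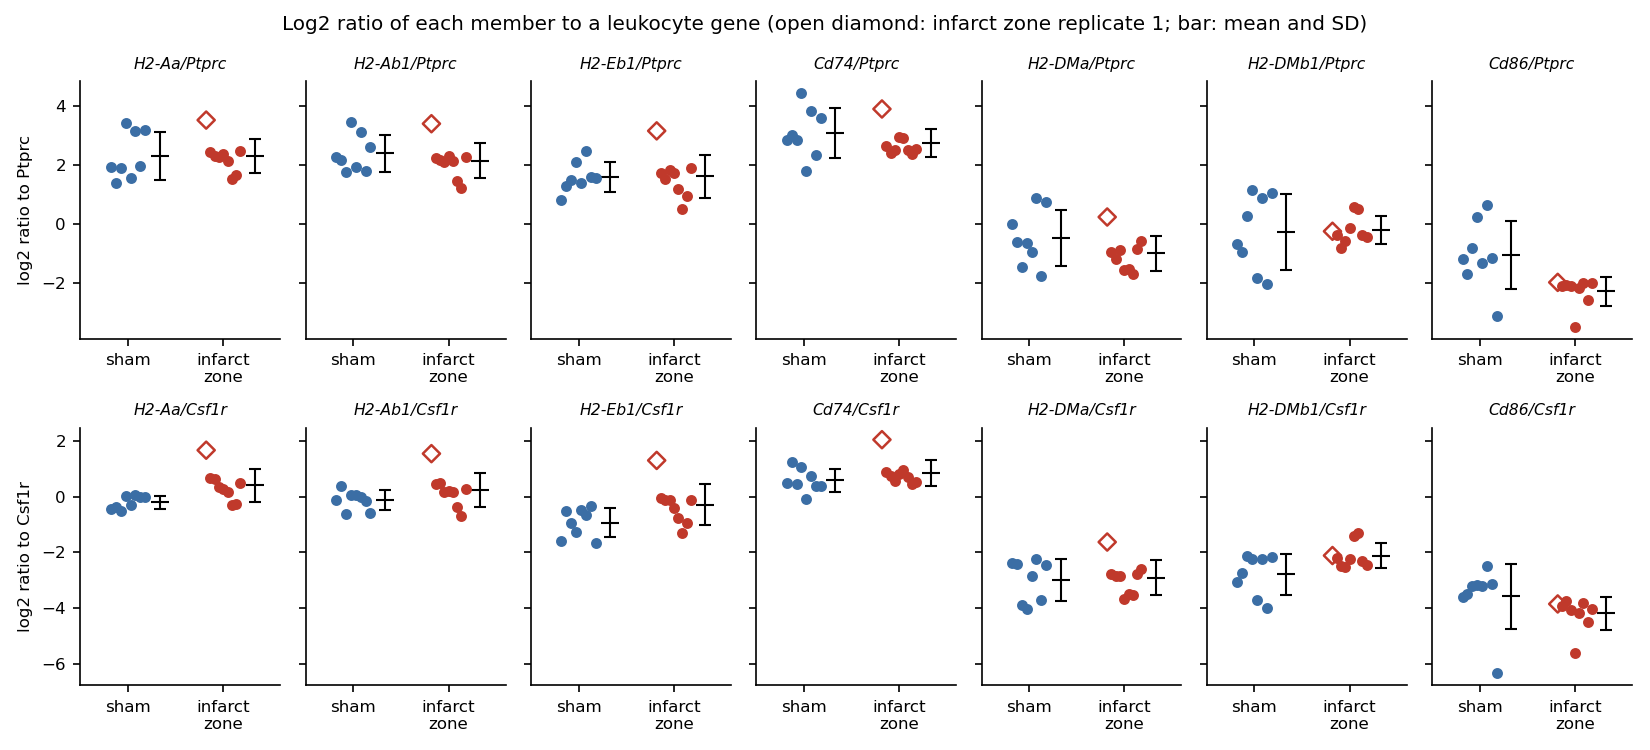
Points give the log2 ratio of each tested member to Ptprc (upper row) and to Csf1r (lower row) in each library, with sham in blue, the infarct zone in red and IZ replicate 1 as an open diamond, and bars give the mean and SD. All ratios overlap between the groups. The mean of Cd86 to Ptprc is lower in the infarct zone by 1.22 on the log2 scale (exact permutation adjusted p 0.0917). IZ replicate 1 is the highest library for H2-Aa to Csf1r, 1.65.

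Within each group the libraries were compared with each other to ask whether the members varied together. Pearson's r and Spearman's rho of log2 CPM were computed with exact permutation p values, adjusted over 21 relations. In the 9 IZ libraries H2-Aa followed H2-Ab1 with r 0.98 (exact permutation p 2.76e-06, the smallest these 362880 pairings can give, adjusted p 5.79e-05) and rho 1 (adjusted p 1.16e-04). It followed H2-Eb1 with r 0.99 (exact permutation adjusted p 9.55e-04) and rho 0.87 (adjusted p 0.0473). Without the 2 libraries farthest from the median these values of r were 0.99 and 0.97, and without IZ replicate 1 they were 0.97 and 0.98, with exact permutation adjusted p values of 5.21e-04 and 0.00859, although rho for H2-Eb1 was then 0.81 (exact permutation adjusted p 0.152). In the 8 sham libraries, at 16 to 69 counts per gene and library for H2-Ab1 and H2-Eb1, r was 0.12 and 0.16 (exact permutation adjusted p 0.835 for both).

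The partners of the classical chains were compared with H2-Aa in the same way. In the infarct zone r for Cd74 was 0.82 (exact permutation adjusted p 0.0328) with rho 0.80 (adjusted p 0.0726), and for H2-DMa r was 0.78 (exact permutation adjusted p 0.0451) with rho 0.73 (adjusted p 0.110). H2-DMb1 ran the other way, with r -0.80 (exact permutation adjusted p 0.0451) and rho -0.70 (adjusted p 0.114), a relation examined after its levels had been seen. All 3 calls on r were lost without IZ replicate 1, where r was 0.81, 0.70 and -0.73 (exact permutation adjusted p 0.0621, 0.122 and 0.102). Without the 2 libraries farthest from the median the values of r were 0.74, 0.92 and -0.76. For Ciita r was 0.67 and for Cd86 0.25, and neither passed the adjustment (exact permutation adjusted p 0.116 and 0.787).

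H2-Aa did not track the leukocyte genes over all 9 IZ libraries, with r 0.16 for Ptprc and 0.08 for Csf1r (exact permutation adjusted p 0.835 for both). IZ replicate 1, which is highest for H2-Aa and lowest for both of these genes, decides these values. Without it r was 0.70 for Ptprc and 0.75 for Csf1r, with exact permutation adjusted p values of 0.122 and 0.0938. Depth moved with the class II levels as well. The 4 IZ libraries with the fewest counts, replicates 5 to 8 with 1237675 to 1868341 counts, were the 4 lowest in H2-Aa. Against the log2 of total counts H2-Aa had r 0.73 and rho 0.82 in the infarct zone (exact permutation adjusted p 0.0762 and 0.0726), and r 0.28 in sham (adjusted p 0.787). H2-DMb1 had r -0.42 in the infarct zone (exact permutation adjusted p 0.545) and r -0.82 in sham (adjusted p 0.0451), which was -0.47 without the 2 sham libraries farthest from the median depth. The part of depth in these relations was not tested.

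**Figure D5:**
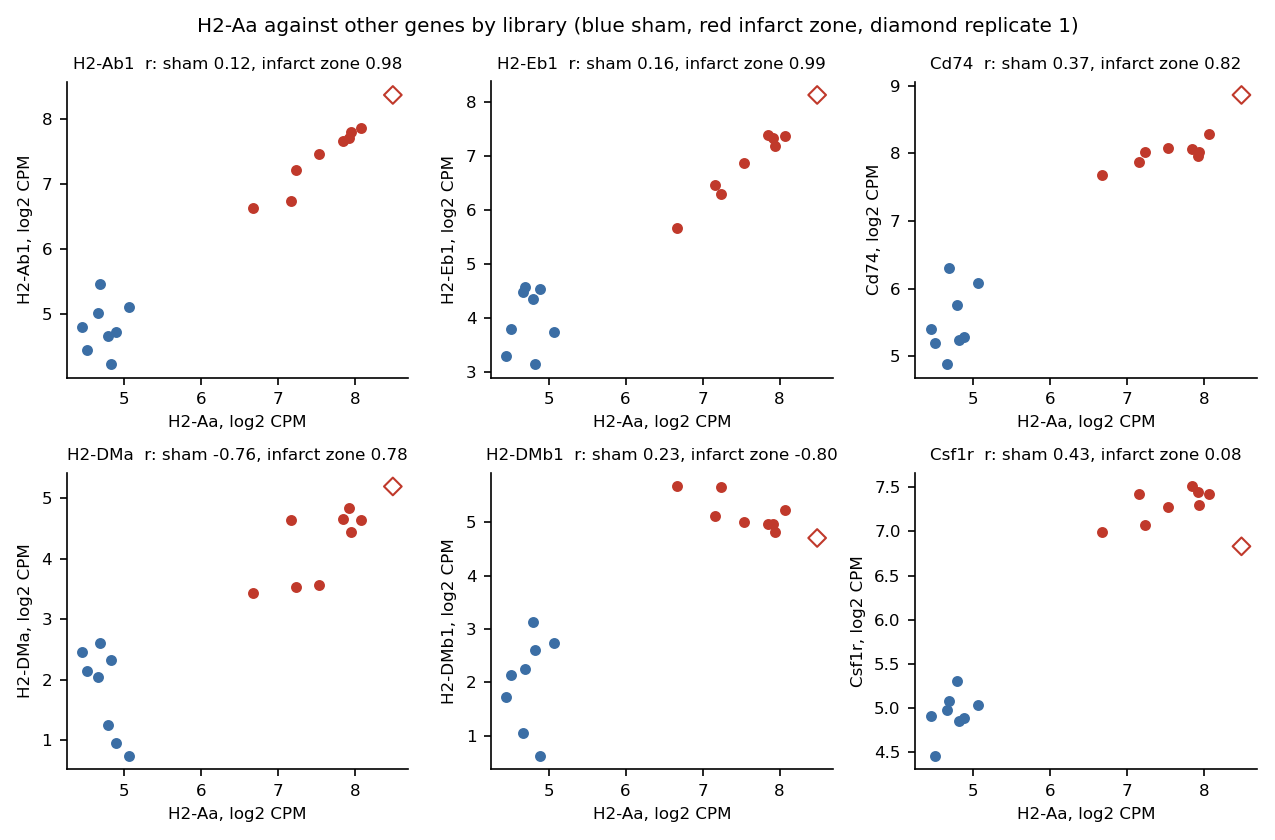
Each point is a library, with log2 CPM of H2-Aa on the horizontal and of another gene on the vertical axis (blue sham, red infarct zone, open diamond IZ replicate 1). H2-Ab1 and H2-Eb1 rise with H2-Aa across the IZ libraries (r 0.98 and 0.99), H2-DMb1 falls (r -0.80), and IZ replicate 1 lies away from the other IZ libraries for Csf1r.

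Among 9349 tested genes outside the members with a mean of at least 10 CPM, those whose deviations from their group means were most like those of H2-Aa over the 17 libraries were Gm8730 (r 0.87), Gm3272 (0.86), Slco2b1 (0.85), Slc25a26 (0.85) and Exoc3 (0.84). These values are descriptions, since the genes were picked for them and the points share their libraries and depths. By the same measure H2-Ab1 had 0.80, H2-Eb1 0.79, Cd74 0.56, H2-DMa 0.37 and H2-DMb1 -0.25. The 5 most similar genes did not share the direction of the group difference, since Gm8730 rose by 0.66 on the log2 scale while Slc25a26 fell by 2.44, Slco2b1 by 1.12, Gm3272 by 0.95 and Exoc3 by 0.89 (edgeR adjusted p of 0.00121 or less).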

How the data were processed

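MACE libraries of 17 hearts were analysed, 8 sham and 9 infarct zone, grouped by the labels. The authors removed PCR duplicates by molecular identifiers, trimmed reads (Cutadapt 4.6), mapped them to the mouse genome mm10 and counted them per gene with HTSeq. The authors deposited these counts as they were, not normalized. Strand use and the treatment of multiply mapped reads are not given in the sources used here. Identifiers were joined to a GRCm38 annotation, where 31521 of 31647 matched.

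Genes were filtered by filterByExpr (minimum 10 counts), scaled by TMM and tested with edgeR 4.0.16 in R 4.3.3 (two-sided quasi-likelihood test, no covariates, Benjamini-Hochberg adjustment, threshold 0.05). DESeq2 1.42.0 served as an alternative. The procedure was tested on simulated data drawn from a shared profile, in which few genes changed, as many up as down. That setting does not test the scaling where most genes are called, as here. Log2 ratios and correlations used log2 CPM with a prior count of 1 and exact permutation tests (NumPy 2.4.6). Ranks and exact intervals came from SciPy 1.17.1. A group with 3 counts or fewer in every library was treated as at the floor, on average 1.79 CPM for sham and 1.06 CPM for IZ, and intervals and floors cover counting error only. Similar 3' ends were sought with BLAST 2.17.0 over the last 500 bases of each transcript. Alternatives were other scalings, no filter, the replicate number as a block, a prior count of 5, and leaving out each library.

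The members and lists were chosen with earlier results of these data known. Named were all members, the genes of the pathway lists, markers as lists, and the 5 genes most like H2-Aa. The omission of IZ replicate 1 from the correlations, the relations of H2-DMb1 with H2-Aa and of both genes with depth, and the motif letters were chosen after seeing the data. Taken out of the lists were 2 genes whose results are not reported here.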

Additional observations from a re-analysis of the deposited data

Results flagged for a closer look

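Single libraries were sought whose distance to the nearest other library was a large part of the range of their group (Dixon's criterion at 95%), over 56 combinations of a measure and a group. Chance marks about 1 in 20 groups. IZ replicate 1 was far from the other IZ libraries in Cd74, with 466 CPM. It also stood out in the log2 ratios to Ptprc of H2-Aa (3.53), H2-Ab1 (3.40) and Cd74 (3.90), and in the log2 ratios to Csf1r of H2-Aa (1.65), H2-Eb1 (1.29) and Cd74 (2.03). This library also had the highest share of mitochondrial counts and the highest cardiomyocyte marker sum of the IZ libraries, and their part in these values was not tested.

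Cd86 stood out in a pair of libraries with few counts. Sham replicate 8 had 0 CPM of Cd86, with log2 ratios of -6.29 to H2-Aa and -6.32 to Csf1r that depend on the prior count. IZ replicate 5 had 2.83 CPM of Cd86 from 5 counts, with log2 ratios of -3.47 to Ptprc and -5.60 to Csf1r. IZ replicate 8 had a log2 ratio of H2-Ab1 to H2-Aa of -0.42.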

How the results depend on the processing

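All 6 members with values in 23 alternatives kept their direction and call in each of them, and Cd86 kept both in the 19 alternatives in which it passed the filter. The size of the rise did depend on the setting. Log2 fold changes ran from 2.84 to 4.05 for H2-Aa, 2.57 to 3.79 for H2-Ab1, 2.82 to 4.08 for H2-Eb1 and 2.39 to 3.59 for Cd74. They ran from 2.38 to 3.57 for H2-DMa, 2.81 to 4.08 for H2-DMb1 and 1.49 to 2.79 for Cd86. TMM factors ran from 0.613 to 0.726 in sham and from 1.05 to 1.54 in IZ. With the replicate number as a block, 8079 genes were called against 8544, H2-Aa was at 2.87 and Cd86 at 1.59. The numbers were not shown to pair the mice: 1 of 8 same-numbered pairs had a correlation of deviations over 0.1 (range -0.22 to 0.13), and 1 library correlated best with its own number. With no filter 10664 genes were called of 27668, and DESeq2 called 10295 of 19150. With total counts alone the calls were 10727, with 85.8% of them higher against 52.3%. Low counts of Ciita, Cd86 and H2-DMa, and of Ptprc in sham, limit what could be seen. The cause of the changes listed here was not tested except where few counts are named.

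With a prior count of 5 the ratio differences (log2) past the threshold were H2-DMa to H2-Aa (-0.82), Cd86 to H2-Aa (-1.64), Cd86 to Ptprc (-1.39), Cd86 to Csf1r (-1.05) and H2-Aa to Csf1r (0.59). Signs turned, with no call, for H2-Eb1 to H2-Aa (-0.0063), H2-DMb1 to H2-Aa (-0.24), H2-Aa to Ptprc (0.25), H2-Ab1 to Ptprc (0.019) and H2-DMa to Csf1r (-0.23). With total counts alone Cd86 to Ptprc passed (-1.32), and signs turned for H2-DMb1 to H2-Aa (-9.6e-04) and H2-Aa to Ptprc (0.043). Under the replicate block H2-Eb1 to Ptprc turned (-0.0031). Leaving out 1 library at a time, the differences ran from -0.33 to -0.14 for H2-Ab1 to H2-Aa, -0.088 to 0.13 for H2-Eb1 to H2-Aa, -0.13 to 0.23 for H2-DMb1 to H2-Aa, -1.63 to -1.05 for Cd86 to H2-Aa, -0.16 to 0.15 for H2-Aa to Ptprc, -0.16 to 0.17 for H2-Eb1 to Ptprc, -0.19 to 0.26 for H2-DMb1 to Ptprc, -1.51 to -0.98 for Cd86 to Ptprc, 0.45 to 0.69 for H2-Aa to Csf1r, -0.068 to 0.20 for H2-DMa to Csf1r and -1.002 to -0.43 for Cd86 to Csf1r. Those that passed the threshold did so without sham replicate 8 (H2-Ab1 to H2-Aa, H2-Aa to Csf1r and the 3 Cd86 ratios) or IZ replicate 7 (H2-Aa to Csf1r).

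Among correlations with H2-Aa in sham, leaving out the 2 farthest libraries turned H2-Ab1 (-0.14), H2-DMb1 (-0.095) and Ptprc (0.35), and total counts alone turned H2-Eb1 (-0.0065) and total counts (-0.018). In the infarct zone Csf1r turned without the 2 farthest libraries (-0.20). Calls were lost without IZ replicate 1 for Cd74 (0.81), H2-DMa (0.70) and H2-DMb1 (-0.73), with a prior count of 5 for H2-DMa (0.78), and with total counts alone for H2-DMa (0.72) and H2-DMb1 (-0.63), whereas H2-Aa against depth passed with total counts alone (0.85). H2-DMb1 against depth in sham lost its call with a prior count of 5 (-0.81) and moved to -0.47 without the 2 farthest libraries.

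Of the pathway genes, total counts alone turned Rfxap (0.998), Rfxank (0.15), March8 (0.93), Ifngr2 (0.11), Jak1 (1.04) and Cd274 (0.58). Rfxap, March8 and Jak1 were then called higher, as were Rfx5 (1.22), Irf1 (1.36) and Icosl (1.08), and Nfyc (-0.10), Rfxank and Ifngr2 were no longer called. Upper quartile scaling turned Rfxap (0.020) and Jak1 (0.066), and no filter turned Jak1 (0.013). Icosl turned with DESeq2 size factors (-0.0078), the replicate block (-0.0078) and DESeq2 (-0.0083). Without 1 library the ranges crossed 0 for Rfx5 (-0.0017 to 0.21), Rfxap (-0.18 to 0.031), Jak1 (-0.10 to 0.031) and Icosl (-0.079 to 0.094). Under the replicate block Socs1 lost its call, with an edgeR adjusted p of 0.115.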
